A study of Mus musculus with 4 samples.

Results

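The genes of the cytosolic ribosomal proteins were followed through the cell types of the E14.5 mouse ventricle and between *Ets1* eKO and control. They were chosen by symbol, as the names of the large (*Rpl*) and small (*Rps*) subunit proteins, with *Rplp0*, *Rplp1*, *Rplp2* and *Rpsa*, and with at least 1000 UMIs over the libraries. Of 32285 genes, 80 symbols matched and 77 passed the minimum, 47 of the large and 30 of the small subunit. The 3 left out were *Rpl3l* with 376 UMIs, *Rpl39l* with 257 and *Rpl10l* with 0. A UMI marks 1 captured RNA molecule.

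Single-cell RNA was sequenced from 4 libraries, 2 of control ventricles (*Tie2*Cre;*Ets1* fl/+) and 2 of *Ets1* eKO ventricles (*Tie2*Cre;*Ets1* fl/fl). Each library pooled 3 ventricles of C57BL/6 embryos at E14.5, of both sexes and not typed for sex. Both groups carried *Tie2*Cre, whose promoter is active in endothelial cells and also in part of the blood lineage, so the control is a heterozygote with Cre and not a wild type. Values for the libraries follow the order control replicates 1 and 2, then *Ets1* eKO replicates 1 and 2. Pools of embryos are the replicates here. In *Ets1* eKO against control, p-values measure the spread between these pools. Comparisons of cell types or cell states, and of the *Ets1* eKO change between cell types, take the library out. Their p-values measure the spread left within libraries, with several sums from each pool, and not the spread between pools.

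A ribosome holds a large and a small subunit, each built from ribosomal RNA and a single copy of nearly every protein. The subunits are assembled in the nucleolus with the help of many biogenesis factors, and growing cells make more of them. The mRNAs of the ribosomal proteins are short and abundant, and in vertebrates they start with a cytosine and a run of pyrimidines, through which mTOR and Larp1 control their translation. Counts of mRNA as measured here say nothing of that control, of protein or of assembled ribosomes.

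The libraries held 7949 to 14951 barcodes and 76931208 to 124140739 UMIs. After the filters 41802 cells were left, of which 36332 entered 1 of 7 classes by marker gates: cardiomyocytes (CMs), fibroblasts, epicardial cells, immune cells, coronary vascular endothelial cells (cvEC), mural endocardial cells (mEndo) and valve endocardial cells (vEndo). The summed endothelial markers ranged from 3090 to 4477 CPM (UMIs per 1000000 UMIs of the class) in the 3 endothelial classes and from 23.5 to 103 elsewhere. The summed epicardial markers ranged from 2522 to 3117 in epicardial cells, which also held the fibroblast markers at 9455 to 11633, so the epicardial class shares much of the fibroblast list. *Ets1* eKO replicate 2 was the shallowest library, with a median of 5632 UMIs per barcode against 8222 to 8630. It also had the highest sum of the 8 cardiomyocyte markers in each of the 6 other classes (in cvEC 807, 592, 759 and 1024 CPM), and free RNA was not removed. Between libraries 19 to 47 barcodes were shared, at most 0.44% of the smaller library.

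*Ets1* itself fell in the 3 endothelial classes. Its level was 367, 329, 175 and 132 CPM in cvEC (log2 −1.10 ± 0.17 SE, adjusted p = 0.00847), 277, 260, 120 and 92.7 in mEndo (−1.27 ± 0.14, adjusted p = 0.00126) and 268, 270, 119 and 109 in vEndo (adjusted p = 0.00326). The libraries of each group matched their labels in this, although 3′ reads need not lie in the deleted part of the gene. Fibroblasts also had lower *Ets1* in both *Ets1* eKO libraries, at 101, 84.8, 62.7 and 58.9 CPM (−0.52 ± 0.13, adjusted p = 0.266). Immune cells, with 69 UMIs of it, had 22.8, 13.9, 13.9 and 12.6. In CMs (7.3, 7.3, 9.1 and 10.0) and epicardial cells (14.8, 16.0, 17.6 and 17.1) the *Ets1* eKO libraries were higher. Whether fibroblasts held deleted cells was not tested. Tests here are edgeR quasi-likelihood tests on UMIs summed per library and class, adjusted over all genes tested.

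How much of a cell's RNA coded for ribosomal proteins differed by cell type. The 77 genes took 13.5% ± 1.07 of UMIs in CMs (mean ± SD, n = 4 libraries) and 20.9% ± 0.927 in cvEC, the lowest and the highest of the 7 classes. Between them lay vEndo with 16.1% ± 0.444, mEndo with 16.9% ± 1.24, fibroblasts with 18.3% ± 1.78, epicardial cells with 18.9% ± 1.62 and immune cells with 20.0% ± 0.985. The ranges over libraries of neighbours in that order overlapped, other than those of CMs and vEndo, which were 12.6 to 14.8% and 15.6 to 16.6%. In every class the large subunit held the larger part, for example 7.84% against 5.67% in CMs. The share says how much of a class's RNA these genes took, so it also moves with the level of all other mRNAs.

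**Figure D1:**
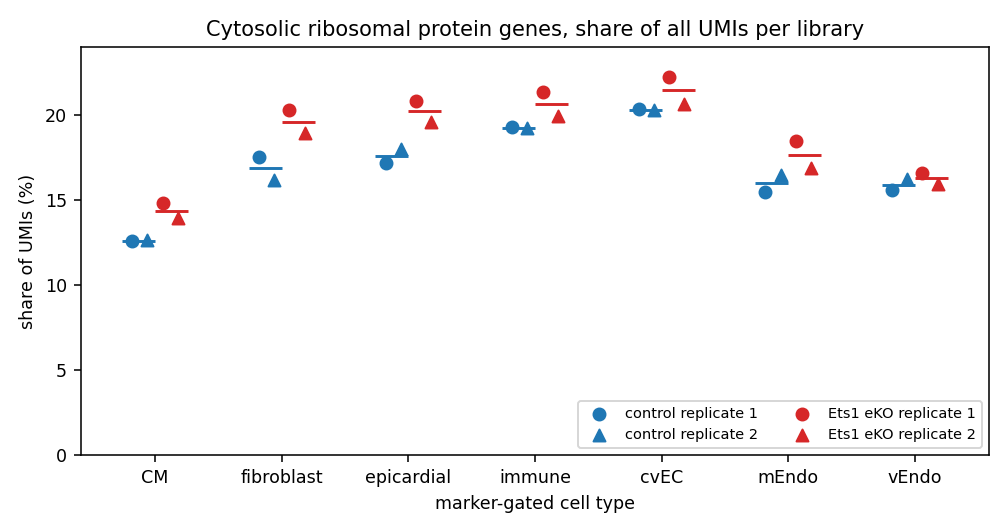
The y axis is the share of all UMIs of a class that came from the 77 ribosomal protein genes (%), by library (points) and group mean (lines), for 7 marker-gated cell types on the x axis. Both *Ets1* eKO libraries lie above both controls in 6 classes and overlap them in vEndo, and CMs are lowest in each library.

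In *Ets1* eKO the share was higher than in control in 6 of 7 classes, in both libraries. In CMs it was 12.6, 12.6, 14.8 and 14.0%, a difference of 1.76 percentage points between means. Fibroblasts had 17.6, 16.2, 20.3 and 18.9% (a difference of 2.75) and epicardial cells 17.2, 18.04, 20.8 and 19.6% (2.62). In each of these 3 classes the lower *Ets1* eKO library still lay above the higher control.

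In immune cells the share was 19.3, 19.2, 21.4 and 20.0%, in cvEC 20.4, 20.3, 22.3 and 20.7%, and in mEndo 15.5, 16.5, 18.5 and 16.9%. In these sums the groups overlapped in vEndo alone, with 15.6, 16.3, 16.6 and 16.0%. With 2 libraries a group these shares are a description and have no test. Replicate 1 of *Ets1* eKO was the highest library in all 7 classes: without it the difference was 0.707 percentage points in immune cells, 0.355 in cvEC, 0.89 in mEndo and 0.041 in vEndo, against 1.40, 1.15, 1.69 and 0.374 with it. The mitochondrial share of UMIs was lower in *Ets1* eKO beside it (in CMs, medians over cells of 5.65, 5.58, 4.55 and 4.45%). Its part in the ribosomal share was not tested. *Malat1*, a nuclear RNA listed here as a sign of RNA quality, was likewise highest in *Ets1* eKO replicate 1 in all 7 classes (in CMs 9590, 9504, 12322 and 8072 CPM, in vEndo 13050, 12570, 25041 and 14406), and its part was not tested either.

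The share was also taken cell by cell. In CMs the median over cells was 13.3, 13.3, 15.5 and 14.3% and the 10th percentile 8.96, 8.89, 10.7 and 10.2%, both higher in the *Ets1* eKO libraries. The 90th percentile was 19.2, 19.3, 21.0 and 17.9%, so there *Ets1* eKO replicate 2 lay below both controls. In immune cells the medians were 19.3, 20.1, 21.9 and 19.8%, and the groups overlapped. They overlapped in vEndo as well (16.1, 16.4, 16.0 and 16.2%) and not in the other 5 classes.

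Gene by gene, none of the 77 was called in *Ets1* eKO against control in any class by edgeR. The share of all genes called was 0.0% in CMs, 0.0201% in fibroblasts, 0.0697% in epicardial cells, 0.0891% in immune cells, 0.757% in cvEC, 3.24% in mEndo and 0.389% in vEndo. DESeq2 called 0 members in each class as well, and at an unadjusted p under 0.05 edgeR had 2 in epicardial cells (*Rpl35* and *Rpl15*), 4 in mEndo (*Rps2*, *Rpl10a*, *Rpl36al* and *Rps27l*) and 0 in the other 5. The estimates themselves were mostly above 0. All 77 were positive in CMs (median log2 fold change 0.30), fibroblasts (0.31) and mEndo (0.21, *Rpl22* at 0.00), 75 in epicardial cells (0.27), 74 in cvEC (0.17), 70 in immune cells (0.12) and 57 in vEndo (0.07). Over all genes tested the median lay between 0.001 and 0.015. In some other lists of the translation machinery the estimates were mostly positive as well. Of 78 mitochondrial ribosomal proteins 76 were positive in CMs (median 0.31) and 75 in mEndo (0.35), and of 38 biogenesis genes 35 (0.20) and 36 (0.30). Both lists had 0 genes called in CMs. In immune cells 17 of 37 biogenesis genes were positive (−0.03). Of 12 genes of Myc and growth control of translation, 5 were positive in CMs (−0.01) and 5 in mEndo (−0.01). Scaled to total UMIs the medians of the 77 were smaller, 0.19 in CMs, 0.15 in mEndo and 0.03 in vEndo, and the median of all genes in CMs was then −0.10.

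Groups that did not overlap were read against the rest of the transcriptome. In CMs 32 members had both *Ets1* eKO libraries higher than either control in CPM and 0 had both lower, where 11.0% and 36.9% of all genes did so. In fibroblasts 31 members were above and 0 below (all genes 12.5% and 33.4%), in epicardial cells 28 and 2 (12.9% and 25.9%), and in immune cells 12 and 2 (14.6% and 18.2%). In mEndo the members were 23 above and 0 below (all genes 20.0% and 33.8%), and in cvEC 5 above and 3 below (14.5% and 31.3%). In vEndo 4 lay above and 6 below, with 17.6% and 22.9% of all genes.

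**Figure D2:**
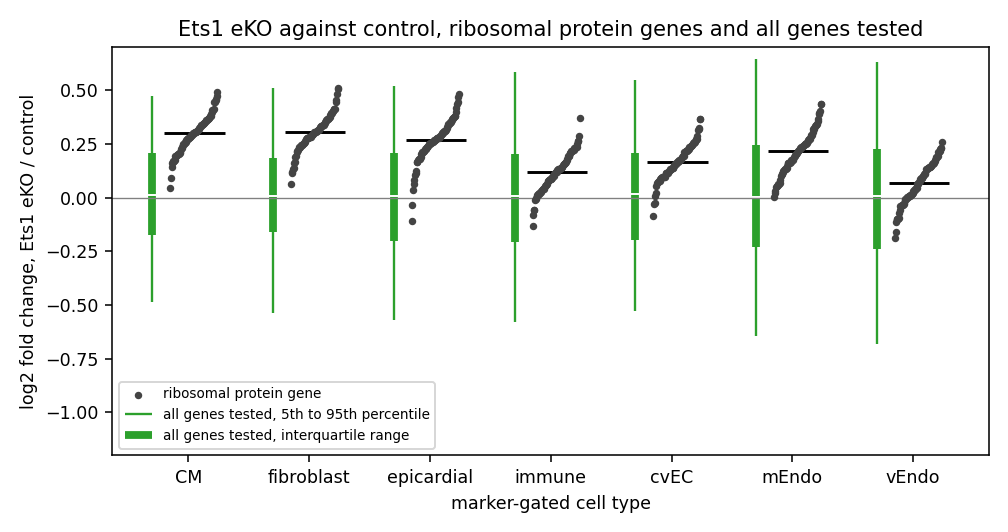
The y axis is the log2 fold change of *Ets1* eKO over control. Points are the 77 ribosomal protein genes, sorted within each class, with their median as a black line, and green bars show all genes tested (thick for the interquartile range, thin for the 5th to 95th percentile). The ribosomal medians run from 0.31 in fibroblasts to 0.07 in vEndo, and nearly all points lie inside the 5th to 95th percentile of all genes.

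Among the members with the highest estimates in CMs and cvEC, some were high in replicate 1 of *Ets1* eKO alone. *Rpl35*, a large-subunit protein at the exit of the peptide tunnel, had 519, 523, 891 and 471 CPM in CMs (0.49 ± 0.27 SE, adjusted p = 0.48). Replicate 1 was high and replicate 2 lay below both controls. *Rps29*, a small zinc-binding protein of the small subunit, had 1282, 1541, 2710 and 938 (0.48 ± 0.43, adjusted p = 0.63), again with 1 *Ets1* eKO library on each side of the controls. In cvEC *Rpl35* had 848, 909, 1440 and 705 (0.37 ± 0.25, adjusted p = 0.56).

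In mEndo other members were among the highest. *Rps2*, a small-subunit protein at the entry of the mRNA channel, had 2088, 2119, 2379 and 3061 CPM there (0.44 ± 0.17, adjusted p = 0.17), so the *Ets1* eKO libraries were the higher ones and did not overlap the controls. *Rpl10a*, a protein of the large subunit's L1 stalk, had 1351, 1357, 1530 and 1895 (0.40 ± 0.16, adjusted p = 0.18). *Rps27l*, the paralog of *Rps27* that p53 is known to induce, had 273, 284, 353 and 315 there. Neither *Rps2* nor *Rpl10a* was called, and without replicate 1 of *Ets1* eKO both were (0.62, adjusted p = 0.00287, and 0.56, adjusted p = 0.00724), while the other ways of leaving out 1 library gave adjusted p of 0.33 to 0.58. With no filter on low counts *Rps2* was called with all libraries (0.43, adjusted p = 0.0318), and *Rpl10a* was not. Beside this, the 10 cell cycle genes summed to 722, 958, 1131 and 1473 CPM in mEndo and the fibroblast markers to 712, 628, 1043 and 1043, both higher in *Ets1* eKO, and their part was not tested. *Rpl35* in mEndo had 668, 738, 1214 and 611 (0.43 ± 0.25, adjusted p = 0.34, and 0.0491 with no filter).

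*Rpl4*, *Rpl12*, *Rpl22* and *Rps18* are named in the study for endothelial cells of these samples, which makes them no independent choice. The study found its marker genes with DESeq2 in Seurat, where cells are the units, and libraries are the units here. These measures are unlike, and its result for the genes was not compared. *Rpl4*, which lines the peptide tunnel, had 702, 769, 714 and 755 CPM in mEndo (0.06 ± 0.14, adjusted p = 0.83) and 940, 1013, 869 and 935 in cvEC (−0.03 ± 0.16, adjusted p = 0.95). *Rpl12*, at the base of the stalk where translation factors bind, had 1400, 1557, 1426 and 1508 in mEndo (0.05 ± 0.15, adjusted p = 0.87) and 2034, 2149, 1801 and 1914 in cvEC (−0.08 ± 0.16, adjusted p = 0.86), where the groups did not overlap. All 4 sat near 0 in both classes. *Rpl22*, an RNA-binding protein, had 1082, 1155, 1166 and 978 in mEndo (0.00 ± 0.15, adjusted p = 1.00) and 1477, 1492, 1501 and 1242 in cvEC (−0.03 ± 0.17, adjusted p = 0.95). *Rps18*, of the head of the small subunit, had 2364, 2419, 2266 and 2470 in mEndo (0.05 ± 0.15, adjusted p = 0.88) and 3217, 3054, 2796 and 3136 in cvEC (0.01 ± 0.17, adjusted p = 0.99).

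The calls turned on which *Ets1* eKO library was kept. Without replicate 1, edgeR called 12 members in CMs (where 11.8% of all genes were called), 11 in epicardial cells (0.913%), 4 in immune cells (0.729%), 19 in cvEC (7.04%), 18 in mEndo (10.9%), 3 in vEndo (1.51%) and 0 in fibroblasts (0.193%). Without replicate 2 it called 10 in CMs (0.717%), 17 in epicardial cells (0.735%), 11 in immune cells (0.719%), 14 in cvEC (3.25%), 12 in mEndo (3.15%), 10 in vEndo (2.0%) and 0 in fibroblasts (0.0386%). All calls without replicate 2 were higher in *Ets1* eKO. Without replicate 1 all were higher in CMs and epicardial cells, 12 were higher and 7 lower in cvEC, 15 and 3 in mEndo, 1 and 3 in immune cells and 0 and 3 in vEndo. No member of CMs or epicardial cells was called both ways of leaving out an *Ets1* eKO library. In cvEC 7 were (*Rpl37a*, *Rpl38*, *Rpl39*, *Rps21*, *Rps27*, *Rps28* and *Rps29*), in immune cells 3 and in vEndo 3, and in mEndo 2 (*Rps28* and *Rps29*), each of them higher with one library and lower with the other. Leaving out either control gave 0 in every class. A lone *Ets1* eKO library is here assumed to vary like the controls. Without replicate 1 the estimates of *Rpl35* and *Rps29* in CMs were −0.01 and −0.45.

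The libraries differed in which ribosomal mRNAs they held, and for part of the members the order of the libraries was alike in the 7 cell types. For each gene its share of the ribosomal UMIs was taken on the log2 scale and set against the mean of the 4 libraries. *Rps29* stood at −0.13, 0.16, 0.71 and −0.74 averaged over the 7 classes, *Rpl38* at −0.19, 0.18, 0.66 and −0.65, and *Rps27* at −0.11, 0.24, 0.53 and −0.66. The 2 *Ets1* eKO libraries were thus the extremes, with the controls between them. *Rps28*, *Rps21*, *Rpl37*, *Rpl37a*, *Rpl39*, *Rpl41* and *Rpl36* followed the same order. *Rpl9* went the other way, at 0.22, −0.10, −0.38 and 0.26.

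Of the 77 genes, 41 had the same highest library in all 7 classes (*Ets1* eKO replicate 1 for 18 and replicate 2 for 20), and 52 the same lowest (29 and 22). For 41 genes the range over libraries was wider than the range over cell types, with medians of 0.36 and 0.33 log2. Short transcripts led the list: *Rps27* has 345 bases in its longest principal coding transcript (GENCODE vM21), *Rps29* 390 and *Rps21* 394, where the median of the 77 is 878. Across the 77 genes, Spearman's rho of transcript length with the difference between the *Ets1* eKO libraries was −0.48, and with that between the controls 0.43, as a description across genes that share libraries. In *Ets1* eKO against control, rho of length with the fold change over all genes tested was −0.45 in CMs and −0.34 in mEndo, and over the 77 it was −0.15 and −0.06. The part of transcript length in these orders was not tested.

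**Figure D3:**
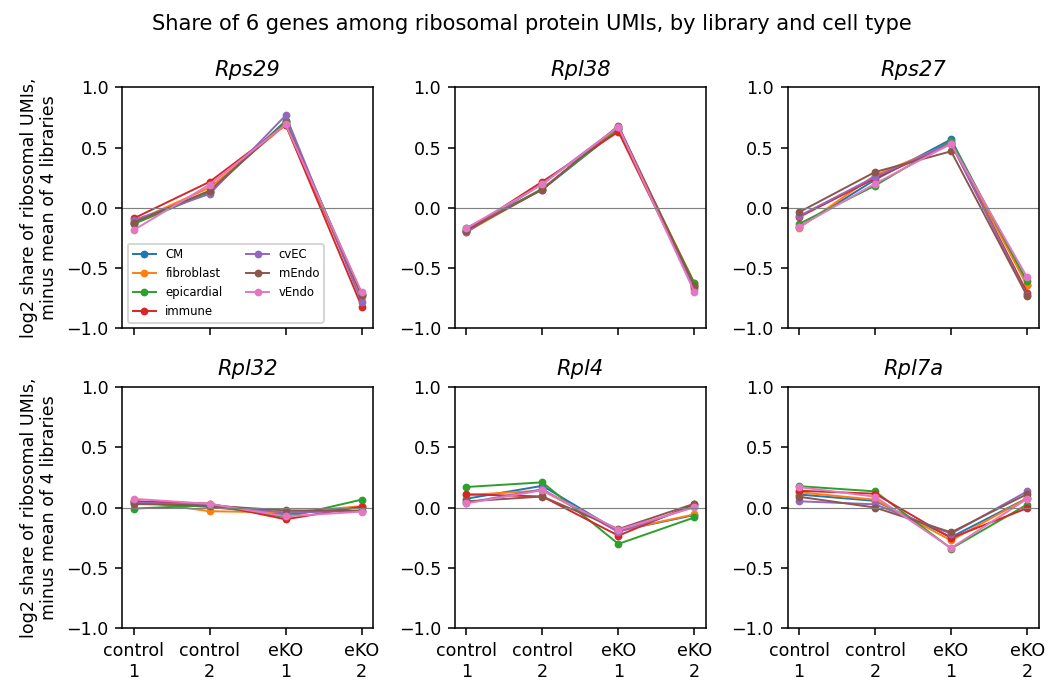
The y axis is the log2 share of a gene among the ribosomal UMIs of a library, minus its mean over 4 libraries, and each coloured line joins the libraries of 1 cell type. *Rps29*, *Rpl38* and *Rps27* peak in *Ets1* eKO replicate 1 and are lowest in replicate 2 in all 7 cell types, while *Rpl32*, *Rpl4* and *Rpl7a* move less.

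The change in *Ets1* eKO was smaller in the endothelial classes than in CMs by its estimates, and the difference was called for no member. The class by condition term had a median over the 77 of −0.08 in mEndo, −0.15 in cvEC and −0.24 in vEndo (−0.04, −0.11 and −0.15 with total UMIs), and in mEndo it was 0.00 without control replicate 2. edgeR and DESeq2 both called 0 members in each (0.356%, 0.452% and 0.53% of all genes were called by edgeR), and 1, 27 and 41 had an unadjusted p under 0.05. *Rps27* differed by −0.27 ± 0.11 in mEndo (adjusted p = 0.50), *Rpl12* by −0.27 ± 0.08 in cvEC (adjusted p = 0.26) and *Rpl27a* by −0.36 ± 0.12 in vEndo (adjusted p = 0.25). *Rps27l* was on the other side in mEndo, at 0.16 ± 0.12 (adjusted p = 0.74).

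By level, the 10 most abundant genes took 22.6% of the ribosomal UMIs. Among them were *Rpl13* with a mean of 4705 CPM over the 7 classes, *Rps24*, *Rps27a* (fused to ubiquitin), *Rplp1*, and *Rps12* with 3451. The lowest were *Rpl4* with 786, *Rpl36al* with 612 and *Rps27l* with 369. The 3′ protocol counts molecules and not length, so these levels are not scaled to length. Many of these genes also have processed copies in the genome, and how reads were shared with those is uncertain.

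The members differed in how far their place moved between cell types. Relative to the 77 together, the range over the 7 classes was 0.32 log2 at the median, under 0.3 for 32 genes and over 0.5 for 17. *Rpl30* and *Rpl29* varied least, by 0.08, and *Rps18* varied by 0.11. *Rps27l* varied most, by 1.24, and wide ranges were also found for *Rps2* (0.91), *Rpl36al* (0.91), *Rps29* (0.72) and *Rps27* (0.67).

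**Figure D4:**
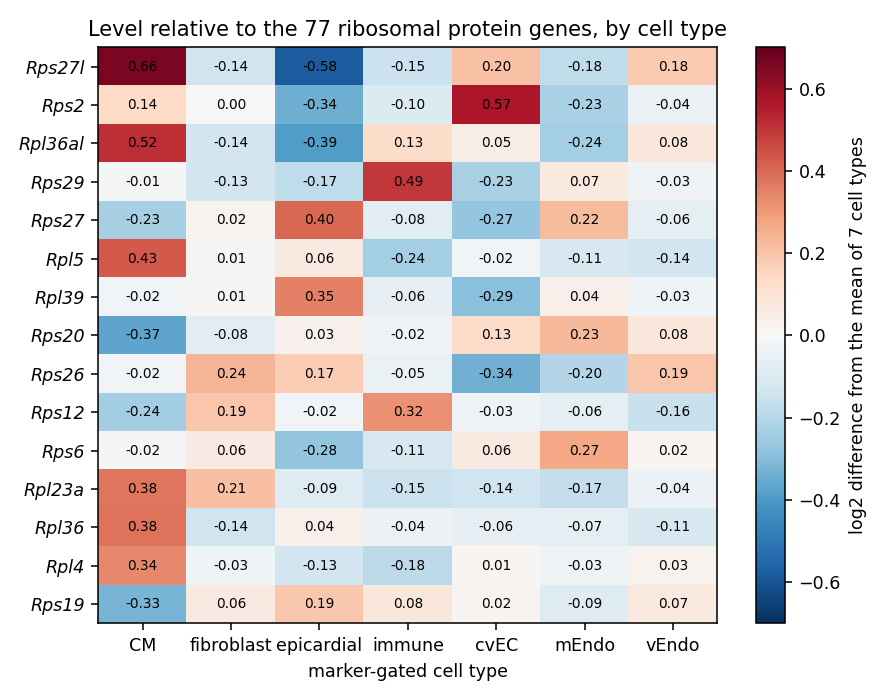
Each cell gives the level of a gene relative to the 77 ribosomal protein genes in 1 of 7 cell types, as the log2 difference from its mean over the cell types, for 15 genes with a range over 0.5. *Rps27l*, *Rpl36al* and *Rpl5* are highest in CMs, *Rps2* in cvEC, *Rps29* in immune cells and *Rps27* in epicardial cells.

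The annotated start sites of 8 members named here are shown, with 10 bases before and 20 from the start, 6 with a pyrimidine run and 2 of wide range over cell types without one. Of the 77 genes, 57 had an entry in the RefSeq promoter table (GRCm38.p6). Capitals mark the pyrimidine run, defined as a cytosine within 5 bases of the start followed by at least 4 pyrimidines. The paralogs *Rps27* and *Rps27l* come first, since their ratio differed between cell types.
Rps27 (chr3:90213629-90213658, minus strand): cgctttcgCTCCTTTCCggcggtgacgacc
Rps27l (chr9:66946076-66946105, plus strand): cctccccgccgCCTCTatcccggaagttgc
Rps2 (chr17:24720053-24720082, plus strand): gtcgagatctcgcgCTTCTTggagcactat
Rpl12 (chr2:32961702-32961731, plus strand): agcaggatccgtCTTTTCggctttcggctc
Rpl35 (chr2:39005112-39005141, minus strand): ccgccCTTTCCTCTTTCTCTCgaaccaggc
Rpl38 (chr11:114668570-114668599, plus strand): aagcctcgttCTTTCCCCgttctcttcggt
Rpl36al (chr12:69184048-69184077, minus strand): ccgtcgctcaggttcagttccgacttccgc
Rpl5 (chr5:107900518-107900547, plus strand): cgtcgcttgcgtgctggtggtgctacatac
Such a run was found in 28 of 57 members (49.12%) and in 21.16% of all genes in the table. No run was found at the annotated starts of *Rpl36al* and *Rpl5*, nor at those of *Rpl36a*, *Rps12*, *Rps19*, *Rpl4* and *Rpl22* or at a further start of *Rps27l*. A run further than 5 bases from the annotated start was not counted, as in *Rps12*, where ccttttcccct lies beyond that limit. Whether the annotated starts are those used in these cells was not tested. Of the 6 runs shown, that of *Rps27l* is the shortest.

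Since the deleted factor belongs to the ETS family, the ETS core CCGGAAG was searched on both strands of the 300 bases around each start (250 before, 50 after). It was in 24 of 57 members (42.11%), in 37.68% of the promoters of mitochondrial ribosomal proteins, in 18.11% of those of genes tested in CMs and in 9.93% of all 27025 genes in the table. Many ETS factors share this core, and a match does not show binding. 4 of these windows follow, with the core in capitals, shown as CTTCCGG where it lies on the other strand.
Rps27l (chr9:66946084-66946113, plus strand): ccgcctctatcCCGGAAGttgctgaggggc
Rps2 (chr17:24719925-24719954, plus strand): atttatacgtcCTTCCGGctggtgtagggc
Rpl35 (chr2:39005240-39005269, minus strand): ggaaggcaggaCTTCCGGgaagcggagggc
Rps18 (chr17:33955804-33955833, minus strand): agaaggccgaaCCGGAAGttatagctccgg
The fold changes in *Ets1* eKO overlapped between members with and without the core. The medians were 0.26 and 0.17 in mEndo, 0.19 and 0.12 in cvEC, 0.12 and 0.01 in vEndo, 0.33 and 0.28 in CMs, 0.35 and 0.28 in fibroblasts, 0.28 and 0.25 in epicardial cells, and 0.14 and 0.09 in immune cells. Whether *Ets1* acts through the core was not tested. The YY1 motif AAGATGGC, searched the same way, was in 5 of 57 (8.77%), in 17.39% of the promoters of mitochondrial ribosomal proteins, in 4.71% of those of genes tested in CMs and in 3.19% of all genes in the table.

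The question of the next comparison was which ribosomal proteins mark a cell type. Each class was set against the mean of the other 6, with library as a covariate, over 14908 genes. These calls depend on the scaling between classes, which differ in their whole transcriptome: with total UMIs in place of TMM the median of all genes was −0.30 in CMs (0.02 with TMM), 0.21 in fibroblasts (0.06), 0.11 in epicardial cells (−0.04) and mEndo (−0.01), 0.13 in vEndo (−0.04), −0.13 in cvEC (−0.05) and −0.31 in immune cells (−0.13). So both splits are given, and where it helps the one relative to the ribosomal UMIs.

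cvEC was high for nearly all members under both scalings to the transcriptome, and immune cells for most. In cvEC 73 rose and 0 fell (31.6% and 29.5% of all genes), and 71 and 1 with total UMIs (28.1% and 33.4%). *Rps2* rose most, with 4906, 4841, 4594 and 6345 CPM in cvEC against 2088 to 3938 in the libraries of the other classes (1.02 ± 0.04 SE, adjusted p = 9.93e-18). No library of another class reached the lowest of cvEC. *Rps27l* (0.61 ± 0.05) and *Rplp0*, the core of the stalk (0.59 ± 0.04), followed. *Rps26*, at the exit of the mRNA channel, was the lowest at −0.03 ± 0.04 (adjusted p = 0.53), and it was lower with total UMIs (−0.11, adjusted p = 0.00571) and relative to the other members (−0.40, adjusted p = 1.24e-12). Of 6 genes listed as signs of RNA quality (nuclear *Malat1*, 3 mitochondrial mRNAs, *Gm42418* and *AY036118*), 5 fell in cvEC and 0 rose (median −0.41), 5 fell in fibroblasts and 1 rose, and in CMs 4 rose and 0 fell. In the other classes 1 to 3 rose and 1 to 2 fell. With total UMIs 0 of the 6 rose and 6 fell in cvEC, 1 and 3 in fibroblasts, and 3 and 2 in CMs. It was 4 and 2 in epicardial cells, 2 and 2 in immune cells, 3 and 1 in mEndo and 1 and 1 in vEndo. The part of these 6 genes in the ribosomal values was not tested.

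In immune cells 74 rose and 0 fell (29.2% and 31.1% of all genes), and 56 and 5 with total UMIs (24.5% and 39.1%). *Rps29* had 2852, 3501, 5400 and 1777 CPM there against 1675, 2143, 3539 and 1203 in mEndo (0.97 ± 0.04, adjusted p = 1.93e-18). It was higher in immune cells in each library, although the libraries spread by more than the classes. *Rps12* (0.76 ± 0.04) and *Rpl10*, among the last proteins loaded on the large subunit (0.67 ± 0.04), rose as well.

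In CMs 11 members rose and 44 fell (40.5% and 33.3% of all genes), 2 and 70 with total UMIs (28.7% and 47.0%), and 32 and 29 relative to the ribosomal UMIs (45.1% and 27.3%). *Rps27l* rose under all 3 (0.65 ± 0.05, 0.33 and 0.77), with 443, 414, 453 and 438 CPM in CMs and 262, 260, 252 and 257 in epicardial cells. *Rpl36al*, the paralog of *Rpl36a*, rose by 0.48 ± 0.05 (0.15 with total UMIs), and with the library size taken without the members it was 0.07 and not called. *Rpl5* rose by 0.37 ± 0.04, stood at 0.05 with total UMIs and was not called there, and relative to the other members rose by 0.50. *Rpl5* and *Rpl11* carry 5S RNA into the large subunit and bind Mdm2. They did not move together: *Rpl11* fell by 0.22 on the log2 scale (± 0.04) in CMs.

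*Rps20* fell by 0.56 on the log2 scale (± 0.04, adjusted p = 1.18e-13), *Rps19* by 0.51 (± 0.04), *Rpl34* by 0.42 (± 0.04) and *Rps27* by 0.40 (± 0.04), and all 4 fell under the 3 scalings. *Rps19*, *Rpl5*, *Rpl11* and *Rpl35a* are known from Diamond-Blackfan anemia, a failure of red cell production. In CMs *Rps19* had 1546, 1637, 1710 and 1660 CPM. Relative to the other members *Rps19* fell in CMs by 0.38 on the log2 scale, on the opposite side of *Rpl5*.

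Epicardial cells were mixed. Here 13 members rose and 27 fell (28.5% and 27.3% of all genes), 42 and 11 with total UMIs (34.4% and 20.5%), and 26 and 30 relative to the ribosomal UMIs (29.0% and 25.9%). *Rps27* rose by 0.45 ± 0.04, with 1517, 1982, 2964 and 1245 CPM against 700, 921, 1361 and 555 in CMs, higher in each library. *Rpl39*, of the peptide tunnel, rose by 0.38 ± 0.04 and *Rps7* by 0.28 ± 0.03. *Rps27l* fell by 0.71 on the log2 scale (± 0.06, adjusted p = 6.42e-11), *Rpl36al* by 0.49 (± 0.05) and *Rps2* by 0.43 (± 0.05). These 6 kept their direction and their call with total UMIs.

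In fibroblasts 3 rose and 37 fell (36.7% and 26.3% of all genes), and with total UMIs 32 and 3 (47.8% and 18.6%), so the direction rested on the scaling. *Rps26* rose by 0.19 ± 0.04 and by 0.34 with total UMIs. *Rpl23a* (0.15 ± 0.04) and *Rps12* (0.13 ± 0.04) were called with all libraries, and without either *Ets1* eKO library *Rpl23a* was at 0.10 and *Rps12* at 0.08, neither of them called. Without control replicate 1 *Rps12* was at 0.12 (adjusted p = 0.0505). *Rps27l*, *Rpl36* and *Rpl36al* were at −0.26, −0.26 and −0.25 (each ± 0.04 to 0.05), and −0.10 each with total UMIs, where *Rps27l* was not called. With the library size taken without the members neither *Rps27l* nor *Rpl36al* was called (adjusted p = 0.0909 and 0.0537).

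Both endocardial classes were low. In mEndo 2 rose and 62 fell (29.5% and 25.4% of all genes), 8 and 40 with total UMIs (37.6% and 18.9%). *Rps6*, the S6 kinase substrate, had 1346, 1435, 1332 and 1585 CPM and was higher by 0.12 ± 0.04, which was not called without control replicate 2 (0.10, adjusted p = 0.07). *Rps7* rose by 0.11 ± 0.03. *Rpl36al* fell by 0.47 on the log2 scale (± 0.05), *Rps2* by 0.46 (± 0.05) and *Rps25* by 0.44 (± 0.04). In vEndo 0 rose and 74 fell (19.0% and 14.1% of all genes), 1 and 53 with total UMIs (26.6% and 8.47%), led by *Rps12* at −0.50 ± 0.04, *Rpl5* at −0.48 ± 0.05 and *Rplp1* at −0.46 ± 0.04. The fewest cells were in vEndo, 91 to 112 a library.

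The paralog pairs differed in composition between cell types. In CMs there were 63.3, 45.0, 33.3 and 79.0 UMIs of *Rps27l* per 100 of *Rps27*, and in epicardial cells 17.3, 13.1, 8.51 and 20.7. The ratio was higher in CMs in each library, and in all 7 classes *Ets1* eKO replicate 2 was highest, then control replicates 1 and 2, then *Ets1* eKO replicate 1. The mean was 41.1 in cvEC, 34.4 in vEndo, 28.2 in immune cells, 26.1 in fibroblasts and 22.6 in mEndo. *Rpl36al* per 100 of *Rpl36a* was 86.9, 75.9, 70.0 and 104 in CMs and 43.5, 38.5, 34.0 and 45.0 in epicardial cells, the same pair of extremes. In neither pair did group means in CMs differ by more than the spread between libraries (54.1 and 56.2, 81.4 and 87.2).

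*Rpl22l1*, a paralog outside the 77, stood at 95.4 ± 6.36 per 100 UMIs of *Rpl22* in epicardial cells and at 49.7 ± 6.06 in immune cells (SD, n = 4). In mEndo it was 59.3, 55.8, 73.3 and 86.5, with both *Ets1* eKO libraries above the controls. The same order held in vEndo (59.7, 59.6, 67.6 and 75.8), cvEC (73.5, 69.0, 74.4 and 87.5) and fibroblasts (72.8, 68.8, 73.1 and 85.2). In CMs, epicardial cells and immune cells the groups overlapped. *Rpl7l1* was steady, with means of 3.60 to 4.69 per 100 of *Rpl7*. *Rpl3l*, the striated muscle paralog of *Rpl3*, had 331 UMIs in CMs and 1 to 8 in each other class, at 1.65, 1.46, 1.11 and 1.54 CPM in CMs, about 0.101 per 100 of *Rpl3*.

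Within a cell type, cycling and non-cycling cells were compared next, as cells with at least 3 UMIs of 10 cell cycle genes against cells with none. Cycling cells were deeper (in CMs of control replicate 1, medians of 14785 and 8369 UMIs). In fibroblasts 73 members rose and 0 fell (27.7% and 25.6% of all genes, median 0.25), and 52 and 2 with total UMIs (20.3% and 36.9%). *Rpsa*, also known as a laminin receptor, had 3350, 2850, 3161 and 3634 CPM in cycling fibroblasts and 2379, 1999, 2374 and 2873 in non-cycling ones (0.56 ± 0.04, adjusted p = 2e-09). It was higher in cycling cells of each library. *Rps2* (0.54 ± 0.04) and *Rplp1* of the stalk (0.49 ± 0.04) followed. The share of ribosomal UMIs was 18.9% in cycling and 17.4% in non-cycling fibroblasts. In cells of 3000 to 12000 UMIs 62 members rose and 0 fell (22.0% and 19.4% of all genes), and the share was 18.6, 17.0, 20.9 and 19.2% against 16.5, 15.4, 19.7 and 19.2%, with no difference in *Ets1* eKO replicate 2.

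In CMs the same comparison was smaller: 56 rose and 3 fell (26.8% and 25.0% of all genes, median 0.09), 51 and 5 with total UMIs (24.8% and 27.2%), with shares of 13.7% and 13.0%. *Rpsa* rose by 0.29 ± 0.02, from 1918, 1803, 1973 and 2331 to 2264, 2247, 2334 and 2817 CPM. *Rps6* rose by 0.24 ± 0.02 and *Rpl4* by 0.23 ± 0.02. *Rps27*, *Rpl10* and *Rps21* fell by 0.10, 0.07 and 0.06 on the log2 scale (each ± 0.02), and in cells of 3000 to 12000 UMIs none of these 3 was called, while 60 rose and 0 fell (18.8% and 19.5%).

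In mEndo 11 members rose and 6 fell, near or below the shares of all genes (15.2% and 9.55%, median 0.00), and 6 and 13 with total UMIs (13.2% and 12.4%). *Rps2* (0.24 ± 0.04), *Rps27l* (0.24 ± 0.05) and *Rpsa* (0.22 ± 0.03) rose. *Rps26* fell by 0.27 on the log2 scale (± 0.04), *Rps27* by 0.24 (± 0.04) and *Rpl10* by 0.18 (± 0.04). In cells of 3000 to 12000 UMIs 2 rose and 26 fell (12.4% and 6.51%), and *Rps2* was at 0.10 and not called. The share was 16.5% in cycling and 16.8% in non-cycling mEndo cells, and in that UMI window 15.9% and 17.1%, lower in cycling cells of all 4 libraries. Without *Ets1* eKO replicate 1 the calls were 10. That the 3 cell types differ in this was not tested. Signs of RNA quality moved beside these values: of the 6 genes listed for it 6 fell in cycling CMs, 5 in cycling fibroblasts and 4 in cycling mEndo cells, and 0 rose. Of 10 immediate early genes 9 fell in cycling CMs and 6 in cycling fibroblasts, and 0 rose, and in cycling mEndo cells 2 fell and 1 rose. Their part was not tested.

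Compact and trabecular CMs, gated by *Tnnt1*, *Hey2*, *Mycn* and *Nkd1* and by *Nppa*, *Bmp10*, *Cited1*, *Slit2* and *Sema3a*, had ribosomal shares of 14.1% ± 0.938 and 11.9% ± 1.16 (SD, n = 4). In each library compact cells were higher (13.1, 13.6, 15.2 and 14.6% against 10.9, 11.0, 13.3 and 12.5%). Of the 77, 56 rose in compact cells and 1 fell (24.2% and 25.2% of all genes, median 0.19), and 69 and 0 with total UMIs (29.7% and 21.3%). *Rpl12* had 1566, 1651, 1571 and 1695 CPM in compact and 1032, 1056, 1084 and 1162 in trabecular cells (0.52 ± 0.05, adjusted p = 5.58e-09), with no overlap between all compact and all trabecular sums.

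*Rpl13a* had 1444, 1746, 1503 and 1608 against 974, 1204, 1134 and 1144 (0.44 ± 0.05), and *Rps6* rose by 0.40 ± 0.05. *Rpl10* was the member that fell (−0.13 ± 0.05, adjusted p = 0.03), which was not called by DESeq2, with total UMIs or without *Ets1* eKO replicate 1 (−0.12, adjusted p = 0.16). Of the same 6 RNA quality genes 5 fell in compact cells and 0 rose (median −0.52), as did 8 of 10 immediate early genes, while 1 of those (*Junb*) rose, and their part was not tested. Compact cells were more often cycling (55.1 to 59.2% against 32.2 to 37.6%). Among CMs with no UMI of the cell cycle list 54 members rose and 0 fell (15.8% and 16.8% of all genes, median 0.19), and the shares were 14.2% and 11.6%. The compact gate sorts cells near its threshold loosely, with 1995 CMs within 10% of it. *Mycn* of the compact gate is also in a fixed list of growth control of translation. No gate without it was run, and its part was not tested.

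**Figure D5:**
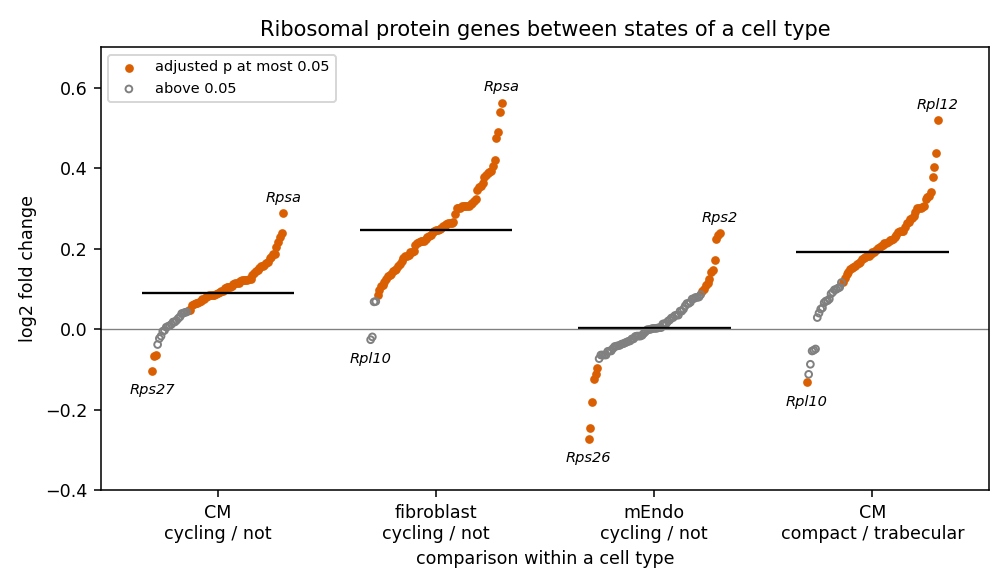
The y axis is the log2 fold change of the 77 ribosomal protein genes, sorted within each comparison on the x axis, with filled points for an adjusted p of at most 0.05 and a line at the median. Nearly all points lie above 0 in cycling fibroblasts and compact CMs, while those of cycling mEndo lie on both sides of 0.

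Other genes of the translation machinery were counted by list, and these counts stand against the shares of all genes that rose and fell in each class, as given above. The 78 mitochondrial ribosomal proteins, which build the separate ribosome of mitochondria, were high in CMs, where 77 rose and 1 (*Mrpl17*) fell (median 0.96), and 74 and 1 with total UMIs (median 0.63). In fibroblasts 1 rose and 63 fell, in epicardial cells 3 and 59, in mEndo 2 and 57, in vEndo 1 and 40, in immune cells 13 and 18, and in cvEC 58 and 3. With total UMIs these were 3 and 38, 8 and 44, 4 and 32, 2 and 23, 6 and 38, and 48 and 5. Of 38 genes of ribosome biogenesis and RNA polymerase I, 30 rose and 0 fell in cvEC (median 0.49), led by *Nhp2*, *Gar1* and *Eif6*, and 0 rose and 21 fell in epicardial cells (28 and 2, and 4 and 13, with total UMIs). In CMs the same list split 14 to 15, near the 40.5% and 33.3% of all genes that rose and fell there, and 4 to 27 with total UMIs (28.7% and 47.0%). Among 15 translation factors with the same kind of mRNA start, 13 rose in cvEC and 0 fell, and 0 rose and 11 fell in vEndo (12 and 0, and 0 and 4, with total UMIs).

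Biogenesis genes also rose with cycling. In fibroblasts 31 rose and 0 fell, in CMs 25 and 0 and in mEndo 15 and 0 (28, 23 and 13 rose and 0 fell with total UMIs). In compact against trabecular CMs 23 rose and 0 fell. In *Ets1* eKO against control, 1 biogenesis gene was called in mEndo, *Nhp2* of the H/ACA particles (0.73 ± 0.16, adjusted p = 0.04), with *Mrps6*, *Mrps15* and *Mrpl35* of the mitochondrial ribosome (*Mrps6* 0.76 ± 0.16, adjusted p = 0.03). That is 1 of 38 and 3 of 78 genes, near the 3.24% of all genes called in mEndo. With total UMIs *Nhp2* and *Mrps6* were called and the other 2 were not.

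Stress genes moved as well. Of 10 immediate early genes that dissociation of tissue can raise, 8 were lower in *Ets1* eKO in mEndo (*Hspa1a* −3.45 ± 0.50, *Fosb* −1.52 ± 0.16) and 2 in vEndo. Between cell types 10 rose and 0 fell in immune cells, 8 and 1 in vEndo, 5 and 2 in fibroblasts, 4 and 2 in epicardial cells, 2 and 8 in mEndo, 2 and 7 in cvEC, and 0 and 10 in CMs. Their part in the ribosomal values was not tested.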

How the data were processed

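The deposited files are UMI counts per gene and barcode that the authors made with Cell Ranger 7.1.0 on mm10 (Seurat 4.3.0 is also named in the submitters' processing notes). They are whole counts with no normalization. Here cells with 200 to 7000 genes, at most 20% mitochondrial and 2% hemoglobin counts were kept. The study's limit of 35% ribosomal counts acts on the measured genes, so it was an alternative only. A cell entered a class by the mean log expression of its markers (at least 3 detected), with thresholds set after the score distributions were seen. The 2300 cells of no gate, 1747 of several gates (doublets among them, with no other doublet caller) and 1423 endothelial cells of no subclass were left out. The UMIs of each class were added up by library for edgeR 4.0.16 in R 4.3.3 (quasi-likelihood test, filterByExpr, TMM, Benjamini-Hochberg at 0.05), with library as covariate where classes or states are compared. DESeq2 1.42.0 was an alternative. Shares are percent of a class's UMIs, and their n is the number of libraries. Depth was 76931208 to 124140739 UMIs per library, and counts of a UMI carry counting error on top of the spread between libraries.

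Genes named are the 10 most abundant, the paralogs, the 5 highest and lowest in *Ets1* eKO in 3 classes, the 6 most variable between classes, those of Diamond-Blackfan anemia, those the study names, and the 3 largest changes each way in other comparisons, and not each is given with a value. Some items are not reported here. The members and lists were chosen with earlier results of these data known. Positions and lengths are from GENCODE vM21 (GRCm38), promoters from RefSeq (GRCm38.p6). Same-numbered replicates did not deviate together (correlations of −0.19 to −0.04), so the main tests have no replicate block. Alternatives were other scalings, no filter on low counts, leaving out each library, other cell filters and a UMI window. The settings with the ribosomal UMIs as library size, the crossed pairing, and compact CMs without cycling cells were chosen after the data were seen.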

Additional observations from a re-analysis of the deposited data

How the results depend on the processing

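The comparisons of cell types, cycling cells and compact CMs kept their totals of called members, higher and lower together, within 1.5 times under the alternatives, apart from the values given here. The split between higher and lower did not hold: with total UMIs it went from 3 and 37 to 32 and 3 in fibroblasts, from 13 and 27 to 42 and 11 in epicardial cells (34 and 18 by DESeq2), from 11 and 44 to 2 and 70 in CMs and from 2 and 62 to 8 and 40 in mEndo. In *Ets1* eKO against control 0 members were called in any class with total UMIs, by DESeq2 or with other cell filters. Leaving out 1 library gave 0 to 12 members in CMs, 0 to 17 in epicardial cells, 0 to 11 in immune cells, 0 to 19 in cvEC, 0 to 18 in mEndo and 0 to 10 in vEndo, and 10 to 16 in cycling mEndo cells, where 17 were called with all libraries. With no filter on low counts 2 were called in mEndo (*Rps2* and *Rpl35*). Relative to the ribosomal UMIs the calls were 39 in vEndo against other classes, 48 in cycling fibroblasts and 35 in compact CMs. In cycling mEndo cells DESeq2 called 11, and 28 were called in cells of 3000 to 12000 UMIs, where the *Ets1* eKO difference of the share in vEndo was −0.197 percentage points. With the replicate number as a block 0 members were called in each class, and 0 with crossed numbers. The causes were not tested.

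Of 763 alternative values for 75 results of named genes, 40 changed sign, nearly all for estimates near 0 on the log2 scale. In *Ets1* eKO with total UMIs *Rpl4* was −0.069 in CMs and −0.002 in mEndo, *Rps18* −0.08 in cvEC and −0.014 in mEndo, *Rpl12* −0.011 and *Rpl22* −0.062 in mEndo. With the library size taken without the members *Rpl4* was −0.04 in CMs, *Rps18* −0.06 in cvEC and *Rpl22* −0.031 in mEndo, and in CMs against other classes *Rpl5* was −0.036. Relative to the ribosomal UMIs *Rpl4* was −0.255 in CMs and −0.141 in mEndo, *Rps18* −0.154 in cvEC and mEndo, and *Rpl12* −0.15 and *Rpl22* −0.209 in mEndo. With no filter *Rps18* in cvEC was −0.003 and *Rpl22* in mEndo −0.004. With the replicate block, crossed or not, *Rpl22* in mEndo was −0.002, and with the stricter cell filter −0.003. In the UMI window *Rpl4* was 0.043 and *Rps18* −0.024 in cvEC. Leaving out 1 library gave, in CMs, −0.006 to 0.863 for *Rpl35*, −0.448 to 1.033 for *Rps29* and −0.002 to 0.094 for *Rpl4*. In cvEC it gave −0.215 to 0.785 for *Rpl35*, −0.095 to 0.041 for *Rpl4*, −0.154 to 0.088 for *Rpl22* and −0.093 to 0.103 for *Rps18*. In mEndo it gave −0.123 to 0.835 for *Rpl35*, −0.011 to 0.164 for *Rpl4*, −0.032 to 0.166 for *Rpl12*, −0.115 to 0.108 for *Rpl22* and −0.029 to 0.126 for *Rps18*. For *Rps26* in cvEC against other classes the range was −0.04 to 0.007.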
